A study of Capra hircus with 9 samples.

Results

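The miR-99, miR-100 and miR-125 families are 3 small groups of microRNAs, short RNAs that pair with messenger RNAs through their seed (bases 2 to 8) and lower the output of those messages. Their members were taken by name, as every entry that belongs to miR-99, miR-100 or miR-125 by the number in its name, which gave 16 of 2189 entries in the deposited table: 6 of miR-99, 4 of miR-100 and 6 of miR-125. Of the 16 entries, 10 carry goat names with the prefix chi- and 6 carry names without a species, ending in -x (5p arm) or -y (3p arm). The libraries are small RNA from the submandibular gland, a salivary gland, of 9 healthy female Lubo goats under shared housing and feeding, with 3 goats of 1 month, 3 of 12 months and 3 of 24 months, each age free of any other treatment in the labels. Libraries are named below by age and by the replicate number in their label, and each is a separate goat.

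As background, miR-125 is the vertebrate relative of lin-4, the microRNA that times larval development in the worm Caenorhabditis elegans, and miR-99 and miR-100 make up an old family whose targets in human cells include the growth regulators MTOR and IGF1R. In mammals the genes of these families lie in clusters that each also hold a let-7 gene, so that 1 primary transcript can yield a miR-99 or miR-100, a let-7 and a miR-125. Members of these families are abundant in many solid tissues, in connective tissue cells and in neurons, and miR-125 also acts in blood stem cells. In the RefSeq gene table for goat assembly ARS1.2 the nearest listed neighbours of MIRLET7C were MIR125B on one side and MIR99A on the other, and MIR99B was listed next to MIRLET7E. MIR100 had no listed miRNA neighbour there, MIRLET7A was listed next to MIRLET7B and not next to a gene of these families, and MIR125A was not matched, so the table shows let-7 neighbours for 3 of the family genes.

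The 5p sequences are shown because their seeds sort the members into 2 groups that hold nearly all of their counts. The sequences were read from the deposited table, 5′ to 3′, with the seed in capitals.
chi-miR-99a-5p: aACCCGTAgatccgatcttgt
chi-miR-100-5p: aACCCGTAgatccgaacttgt
chi-miR-99b-5p: cACCCGTAgaaccgaccttgcg
chi-miR-125b-5p: tCCCTGAGaccctaacttgt
chi-miR-125a-5p: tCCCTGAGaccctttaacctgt
The seed ACCCGTA is shared by 5 entries and the seed CCCTGAG by 3. Counted from the 5′ end with chi-miR-99a-5p as the reference, chi-miR-100-5p differs by T16A alone, and chi-miR-99b-5p differs by A1C, T11A, T16C and T21C over the 21 bases compared. The first 13 bases of chi-miR-125b-5p and chi-miR-125a-5p are the same. With 1 base between chi-miR-99a-5p and chi-miR-100-5p, the split of reads between these 2 depends on the mismatches that the counting allowed, a setting not given in the sources used here.

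Further entries are longer forms of the same RNAs: each begins with the whole sequence of a goat-named member and runs on. These are shown with the added bases in capitals.
miR-99-x: aacccgtagatccgatcttgtGA
miR-100-x: aacccgtagatccgaacttgtGA
miR-125-x: tccctgagaccctaacttgtGAA
miR-125-y: acaagtcaggctcttgggaccTT
miR-99-y: caagctcgtgtctgtgggtcCGT
miR-99-x thus extends chi-miR-99a-5p by 2 bases, miR-100-x extends chi-miR-100-5p by 2, miR-125-x extends chi-miR-125b-5p by 3, miR-125-y extends chi-miR-125b-3p by 2, and miR-99-y extends chi-miR-99b-3p by 3. A longer form is no independent witness for its shorter entry.

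The libraries held 8288492 to 13277448 counts. 1-month goat 2 stood apart: the leukocyte markers (13 entries of miR-142, miR-150, miR-155 and miR-223) took 10.96% of its counts, against 2.62% and 4.46% in 1-month goats 1 and 3 and 0.111% to 0.149% in the 6 older goats. The gland markers (8 entries of miR-148 and miR-375) took 1.38% of counts in 1-month goat 2, 8.53% and 6.48% in 1-month goats 1 and 3, and 14.2% to 17.9% later. The epithelial markers (15 entries of miR-200, miR-141, miR-429, miR-205 and miR-203) took 0.797%, 5.31% and 3.63% in 1-month goats 2, 1 and 3, and 9.74% to 11.2% later. The mesenchymal markers (20 entries of miR-143, miR-145, miR-199 and miR-214) took 1.66% in 1-month goat 2, 10.7% and 13.6% in 1-month goats 1 and 3, and 6.51% to 9.04% later. The neural markers (14 entries of miR-9, miR-124, miR-128 and miR-129) took 3.48% in 1-month goat 2, 0.722% and 0.418% in 1-month goats 1 and 3, and 0.0277% to 0.0548% later. The endothelial markers (4 entries of miR-126) took 0.441% in 1-month goat 2 and 0.693% to 1.45% in the others. The muscle markers (15 entries of miR-1, miR-133, miR-206 and miR-499) set 12-month goat 4 apart, at 0.247% against 0.0150% to 0.0606% elsewhere. The red cell markers (10 entries of miR-144, miR-451 and miR-486) took 0.0735% to 0.403%. In bulk tissue, fewer cells of a type and less RNA per cell cannot be told apart. The part of this cell mix in the members' levels was not tested. Several results below, though not all, are given with and without 1-month goat 2.

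Together the 16 members held 10.9 ± 3.78% (SD, n = 3) of all counts at 1 month, 12.5 ± 1.011% at 12 months and 11.1 ± 1.13% at 24 months. By library the share was 12.57%, 6.58% and 13.57% in 1-month goats 1, 2 and 3, then 13.67%, 11.95% and 11.88% in 12-month goats 3, 4 and 5, and 10.60%, 12.42% and 10.35% in 24-month goats 2, 3 and 5. The 3 ages overlapped, and the single low library was 1-month goat 2. Without it, the 1-month goats (12.57% and 13.57%) stood above every 24-month goat (10.35% to 12.42%). They still overlapped the 12-month goats (11.88% to 13.67%). The Wilson 95% interval of 1-month goat 2 was 6.57 to 6.59%, which covers counting error only and is narrow beside the spread between goats. Entries with the miR-99 and miR-100 seed took 6.02 ± 2.34%, 6.67 ± 0.488% and 6.33 ± 0.856% of counts at 1, 12 and 24 months. Entries with the miR-125 seed took 4.83 ± 1.43%, 5.77 ± 0.534% and 4.74 ± 1.09%. In 1-month goats 1 and 3 alone the first group took 7.18% and 7.54%, above the 24-month goats at 5.34% to 6.85%. The second took 5.31% and 5.95% there, which overlapped the 24-month goats at 3.49% to 5.52%. A sum over named members is given as a description, without a test.

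**Figure D1:**
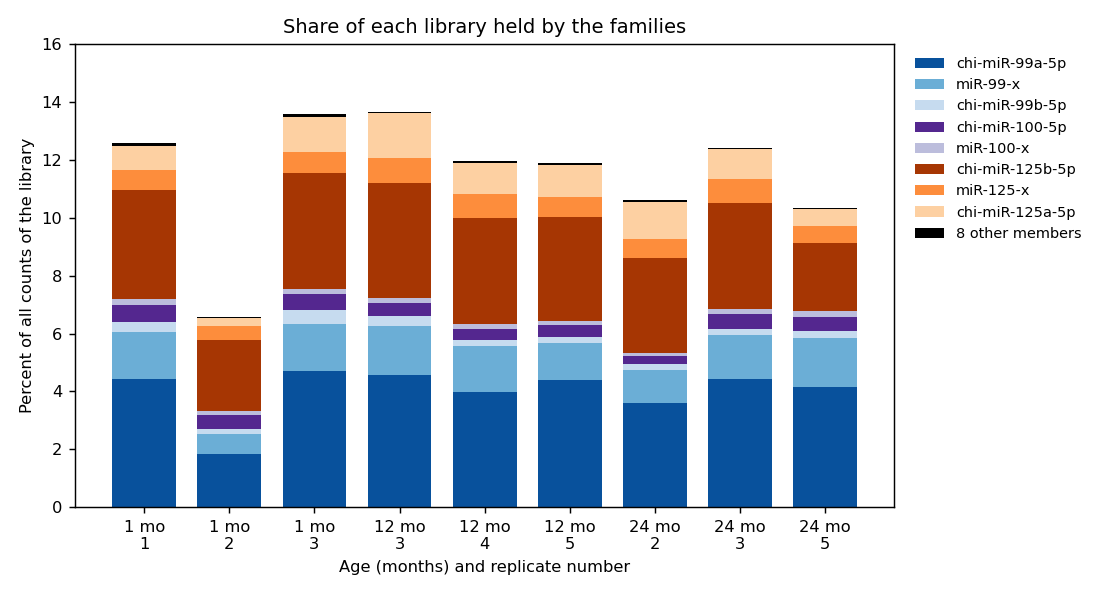
Bars give the percent of all counts of each library (y axis) held by the members, stacked by entry, for 9 libraries ordered by age and replicate number (x axis). 8 libraries stand between 10.35% and 13.67%, and 1-month goat 2 stands at 6.58%.

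The order of levels was led by chi-miR-99a-5p and chi-miR-125b-5p, which ranked 4 and 7 among all 2189 entries by total count. Levels are CPM, the counts scaled to a common library size, after adjustment by edgeR's trimmed mean of M values (TMM). No length scaling was made, as members run from 20 to 23 bases and each read is 1 whole molecule. chi-miR-99a-5p averaged 40128 CPM over the 9 libraries and exceeded chi-miR-125b-5p, at 34055 CPM, in 8 of 9, with 1-month goat 2 the exception. miR-99-x followed at 14252 CPM, chi-miR-125a-5p at 9924, miR-125-x at 7014, chi-miR-100-5p at 4625, chi-miR-99b-5p at 2586 and miR-100-x at 1688. Neighbours in this order swapped places in 1 library for miR-99-x and chi-miR-125a-5p, in 2 for chi-miR-125a-5p and miR-125-x, and in 1 for miR-125-x and chi-miR-100-5p, so these are not firmly ordered. The order of chi-miR-100-5p, chi-miR-99b-5p and miR-100-x held in 9 of 9.

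**Figure D2:**
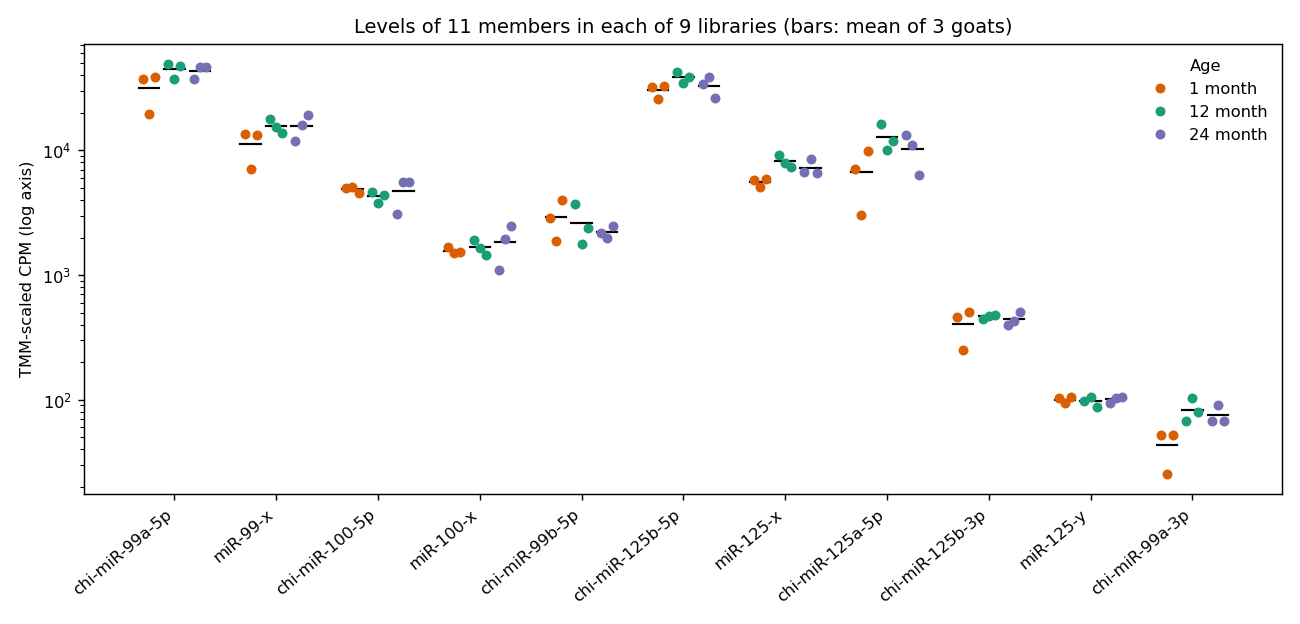
TMM-scaled CPM on a log axis for the 11 members that average 10 CPM or more at some age, with 1 point per goat, 3 colours for the 3 ages and a bar at each age's mean. The 9 points of miR-125-y lie close together, from 88.1 to 105.0 CPM. The lowest point of chi-miR-99a-5p, miR-99-x, chi-miR-125a-5p, miR-125-x, chi-miR-125b-3p and chi-miR-99a-3p is 1-month goat 2 in each case. That goat is also lowest for chi-miR-125b-5p, at 25902 CPM, just below 24-month goat 5 at 26409.

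No member passed the test in any of the 3 age comparisons. The test was edgeR's quasi-likelihood F test, fitted over all 937 entries that passed a filter on low counts, with Benjamini-Hochberg adjustment over the 937 and a threshold of 0.05. Of the 16 members, 14 passed the filter and 2 did not, chi-miR-100-3p and miR-100-y, with 10 and 8 counts over all libraries. Between 1 and 12 months 0 of 14 tested members passed, where 19.2% of all entries did, 5.98% higher and 13.2% lower at 12 months. Between 1 and 24 months 0 of 14 passed, where 26.3% of all entries did, 8.75% higher and 17.5% lower at 24 months, and between 12 and 24 months 0 of 14 passed, where 0% of all entries did. At an unadjusted p under 0.05 the member counts were 1, 0 and 0, for 12 against 1, 24 against 12 and 24 against 1 month, beside 39.9%, 4.27% and 42.6% of all entries. DESeq2 and limma voom, run as alternatives, also called 0 members in each comparison. The median log2 fold change of the 14 was 0.15 for 12 against 1 month, beside −0.02 over all entries. It was −0.16 beside −0.03 for 24 against 12 months and 0.13 beside −0.06 for 24 against 1 month.

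chi-miR-99a-5p, the most abundant member, stood at 37621, 19526 and 38670 CPM in 1-month goats 1, 2 and 3, at 48906, 37730 and 47694 CPM in 12-month goats 3, 4 and 5, and at 37394, 46933 and 46681 CPM in 24-month goats 2, 3 and 5. The low value is 1-month goat 2, and the lowest 12-month and 24-month values lie at the height of the other 2 young goats, so the ages overlap. The fitted log2 fold change from 1 to 12 months was 0.49 (SE 0.34, edgeR adjusted p = 0.302), with a 95% interval from −0.25 to 1.23. It was 0.21 (SE 0.20, adjusted p = 0.456) without 1-month goat 2, 0.018 without 12-month goat 5, 0.095 without 12-month goat 3, and 0.13, 0.14 and 0.13 without 24-month goats 2, 3 and 5. Leaving out those 24-month goats also moved the median over all entries, from −0.02 to −0.40 in each case. Without 12-month goats 3 and 5 that median was −0.37 and −0.45. From 12 to 24 months the log2 fold change of chi-miR-99a-5p was −0.04 (SE 0.34, edgeR adjusted p = 0.998), with an interval from −0.78 to 0.70. DESeq2 size factors gave 0.017 there. From 1 to 24 months it was 0.45 (SE 0.34, edgeR adjusted p = 0.334) with an interval from −0.29 to 1.19. Leaving 1-month goat 2 out brought the last value to 0.17. Plain shares of counts went the other way without that goat. Summed with its longer form miR-99-x, chi-miR-99a-5p took 6.05% and 6.31% in 1-month goats 1 and 3. The 24-month goats stood lower, at 4.73% to 5.96%, so the direction without 1-month goat 2 depends on the scaling. The intervals leave room for differences of up to about 1 log2 unit in either adult age against 1 month, so the data do not show that the levels were equal. The longer form miR-99-x stood at 13626, 7124 and 13188 CPM in 1-month goats 1, 2 and 3, at 17951, 15308 and 13743 CPM in 12-month goats 3, 4 and 5, and at 11843, 16122 and 19361 CPM in 24-month goats 2, 3 and 5. It was low in the same young goat, and its highest value was 24-month goat 5.

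chi-miR-125b-5p, known in human and mouse cells for restraining differentiation and cell death, stood at 32034, 25902 and 33034 CPM in 1-month goats 1, 2 and 3. It stood at 42523, 34523 and 39101 CPM in 12-month goats 3, 4 and 5, and at 34182, 38783 and 26409 CPM in 24-month goats 2, 3 and 5. All 3 values at 12 months lie above all 3 at 1 month, while the 24-month values span both, with 24-month goat 5 near the lowest young goat. The log2 fold change from 1 to 12 months was 0.35 (SE 0.29, edgeR adjusted p = 0.378) with an interval from −0.29 to 1.00. It was −0.22 (SE 0.29, adjusted p = 0.998) from 12 to 24 months and 0.13 (SE 0.29, adjusted p = 0.780) from 1 to 24 months, where scaling by library size alone gave −0.14. With 1-month goat 2 left out, the values against 1 month were 0.23 at 12 months and 0.0023 at 24 months for chi-miR-125b-5p. Its longer form miR-125-x stood at 5801, 5063 and 5947 CPM in 1-month goats 1, 2 and 3, at 9146, 7908 and 7401 CPM in 12-month goats 3, 4 and 5, and at 6703, 8560 and 6595 CPM in 24-month goats 2, 3 and 5, so that all 6 older goats stood above the young goats. Over the 9 libraries the highest chi-miR-125b-5p level was 1.64 times the lowest, a smaller ratio than in all but 1.98% of the 101 tested entries with a mean of at least 1000 CPM, whose median ratio was 4.67. For chi-miR-99a-5p the ratio was 2.505, with 23.8% of those entries lower.

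chi-miR-125a-5p shares its seed with chi-miR-125b-5p and comes from the cluster that holds miR-99b and let-7e in mammals. It had the widest range of the abundant members, 5.44 times from lowest to highest, where 53.5% of the 101 entries had a smaller ratio. It stood at 7114, 3018 and 9899 CPM in 1-month goats 1, 2 and 3, at 16425, 10164 and 11938 CPM in 12-month goats 3, 4 and 5, and at 13378, 11041 and 6335 CPM in 24-month goats 2, 3 and 5. The 12-month goats all stood above the 1-month goats, by a narrow gap between 9899 and 10164 CPM, and 24-month goat 5 stood within the 1-month range. The log2 fold change was 0.94 (SE 0.46, edgeR adjusted p = 0.150) from 1 to 12 months, with an interval from −0.07 to 1.96. Without 1-month goat 2 it was 0.57 (SE 0.34, adjusted p = 0.248), and from 1 to 24 months it was 0.62 (SE 0.46, adjusted p = 0.331), or 0.24 without that goat.

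chi-miR-100-5p, which differs from chi-miR-99a-5p by 1 base, did not follow it in 1-month goat 2. It stood at 4982, 5118 and 4547 CPM in 1-month goats 1, 2 and 3, at 4658, 3793 and 4348 CPM in 12-month goats 3, 4 and 5, and at 3091, 5533 and 5559 CPM in 24-month goats 2, 3 and 5. The young goats stand close together, and the lowest value is 24-month goat 2. Its log2 fold change was −0.19 (SE 0.32, edgeR adjusted p = 0.666) from 1 to 12 months and −0.05 (SE 0.32, adjusted p = 0.944) from 1 to 24 months, where upper quartile scaling gave 0.12. Its longer form miR-100-x stood at 1669, 1497 and 1522 CPM, then 1904, 1647 and 1459 CPM, then 1106, 1933 and 2454 CPM in the same order of goats, and its ages overlapped. chi-miR-99b-5p stood at 2894, 1868 and 4004 CPM in 1-month goats 1, 2 and 3, at 3704, 1787 and 2392 CPM in 12-month goats 3, 4 and 5, and at 2188, 1964 and 2469 CPM in 24-month goats 2, 3 and 5. The ages overlapped, with the highest values in 1-month goat 3 and 12-month goat 3. The log2 fold change of chi-miR-99b-5p was −0.15 (SE 0.38, edgeR adjusted p = 0.786) from 1 to 12 months, and −0.42 (adjusted p = 0.335) without 1-month goat 2. From 1 to 24 months it was −0.40 (SE 0.38, adjusted p = 0.454) with all goats.

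The 3p arms, the strands that are mostly discarded when a microRNA is loaded into its effector complex, held 0.432% to 0.616% of the members' counts in each library. chi-miR-99a-3p had the smallest p of all members between 1 and 12 months. It stood at 52.0, 25.4 and 52.2 CPM in 1-month goats 1, 2 and 3, at 67.8, 102.3 and 79.9 CPM in 12-month goats 3, 4 and 5, and at 68.0, 90.1 and 67.2 CPM in 24-month goats 2, 3 and 5. All 6 older goats stood above all 3 young goats. The log2 fold change was 0.95 (SE 0.39, edgeR adjusted p = 0.0940) from 1 to 12 months and 0.80 (SE 0.39, adjusted p = 0.143) from 1 to 24 months, so neither passed. With goat-named entries alone in the fit the first was 1.08 at an adjusted p of 0.0474 and passed, and without 1-month goat 2 it was 0.65 at 0.118. chi-miR-125b-3p stood at 461.5, 251.1 and 507.0 CPM in 1-month goats 1, 2 and 3, at 447.0, 471.8 and 477.8 CPM in 12-month goats 3, 4 and 5, and at 397.5, 431.3 and 509.7 CPM in 24-month goats 2, 3 and 5. Its longer form miR-125-y stood at 102.7, 93.3 and 104.8 CPM, then 98.4, 104.2 and 88.1 CPM, then 94.2, 102.2 and 105.0 CPM in the same order. Both overlapped between ages, and miR-125-y was not low in 1-month goat 2.

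The remaining 3p entries were rare. chi-miR-125a-3p stood between 4.9 and 12.5 CPM, miR-99-y between 1.7 and 6.2 CPM and chi-miR-99b-3p between 1.2 and 3.8 CPM over the 9 libraries. For the 8 tested members without fold changes of their own above, log2 fold changes ran from −0.69 to 0.54 between 1 and 12 months, from −0.31 to 0.13 between 12 and 24 months and from −1.001 to 0.48 between 1 and 24 months, with edgeR adjusted p of at least 0.183, 0.998 and 0.188.

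**Figure D3:**
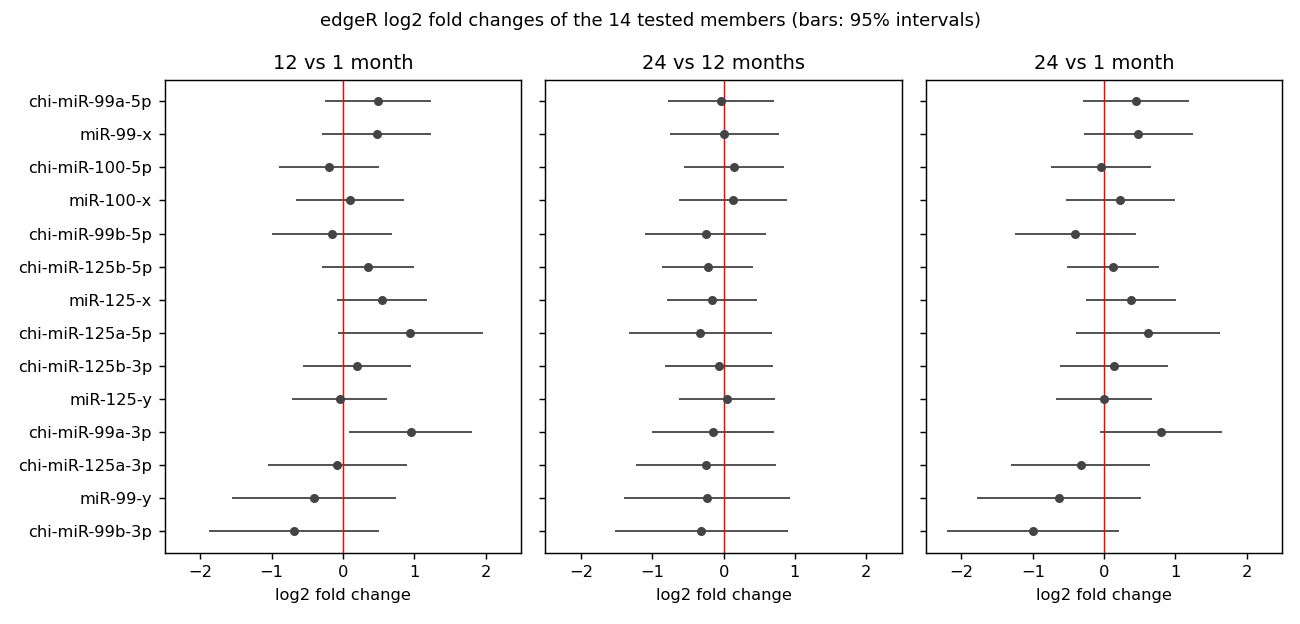
Points give the edgeR log2 fold change of each of the 14 tested members, with later age over earlier age on the x axis and 95% intervals as bars, in 3 panels for the 3 comparisons. The bar of chi-miR-99a-3p for 12 against 1 month is the only one of the 42 that does not reach 0, at an adjusted p of 0.0940.

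The ages can also be set side by side by which libraries overlap in TMM-scaled CPM. Between 1 and 12 months 5 of 14 tested members had no overlap between the ages, where 48.5% of all entries had none, 26.3% higher and 22.2% lower at 12 months. All 5 were higher at 12 months: chi-miR-125b-5p, its longer form miR-125-x, chi-miR-125a-5p, miR-99-x and chi-miR-99a-3p. Between 1 and 24 months 2 of 14 did not overlap, chi-miR-99a-3p and miR-125-x, both higher at 24 months, where 47.2% of all entries did not, 21.3% higher and 25.8% lower. Between 12 and 24 months 0 of 14 stood apart, where 9.82% of all entries did, 6.08% higher and 3.74% lower. chi-miR-125b-5p and miR-125-x are forms of the same RNA, so the 5 are not separate. These separations rest on the TMM factors, 1.18 and 1.22 in 1-month goats 1 and 3 against 0.923 to 1.05 at 12 months. As plain shares of all counts, each of the 5 overlapped between 1 and 12 months. chi-miR-125a-5p took 1.21% in 1-month goat 3 against 1.07% and 1.10% in 12-month goats 4 and 5. By such shares chi-miR-99a-3p and miR-125-x also overlapped between 1 and 24 months.

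Ratios within a library need no scaling factor. chi-miR-125b-5p over chi-miR-99a-5p was 0.851, 1.33 and 0.854 in 1-month goats 1, 2 and 3, then 0.869, 0.915 and 0.820 in 12-month goats 3, 4 and 5, and 0.914, 0.826 and 0.566 in 24-month goats 2, 3 and 5. Of the 9 libraries, 7 lay between 0.820 and 0.915, with 1-month goat 2 above and 24-month goat 5 below. These are the 2 libraries in which the pair came apart, in opposite directions. chi-miR-99a-5p over chi-miR-100-5p was 7.55, 3.81 and 8.505 in 1-month goats 1, 2 and 3, then 10.5, 9.95 and 10.97 in 12-month goats 3, 4 and 5, and 12.1, 8.48 and 8.40 in 24-month goats 2, 3 and 5. The 12-month goats stood above the 1-month goats, and the 24-month goats overlapped both.

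chi-miR-125a-5p over chi-miR-99b-5p, 2 RNAs that mammals make from 1 cluster, was 2.46, 1.62 and 2.47 in 1-month goats 1, 2 and 3. It was 4.43, 5.69 and 4.99 in 12-month goats 3, 4 and 5, and 6.11, 5.62 and 2.57 in 24-month goats 2, 3 and 5. All older goats stood above the young goats, and 24-month goat 5 stood only just above them. Among the 10 ratios between the 5 goat-named 5p members, 5 did not overlap between 1 and 12 months, 0 between 12 and 24 months and 2 between 1 and 24 months. Over all 2485 pairs of the 71 goat-named entries with a mean of at least 1000 CPM the shares without overlap were 62.2%, 9.3% and 59.5%, so shifts in ratio against 1 month were common among abundant entries. The 5p to 3p ratio of miR-125a was 663, 622 and 792 in 1-month goats 1, 2 and 3, then 1501, 1512 and 1343 in 12-month goats 3, 4 and 5, and 1735, 1765 and 754 in 24-month goats 2, 3 and 5. It rests on 55 to 177 counts of chi-miR-125a-3p per library. The 24-month goat 5 had the lowest 5p to 3p ratio of its age for miR-125a and for miR-125b, at 51.8 for the latter against 86.0 and 89.9, while its 3p level of miR-125b was 509.7 CPM against 397.5 and 431.3. These ratios were not tested.

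**Figure D4:**
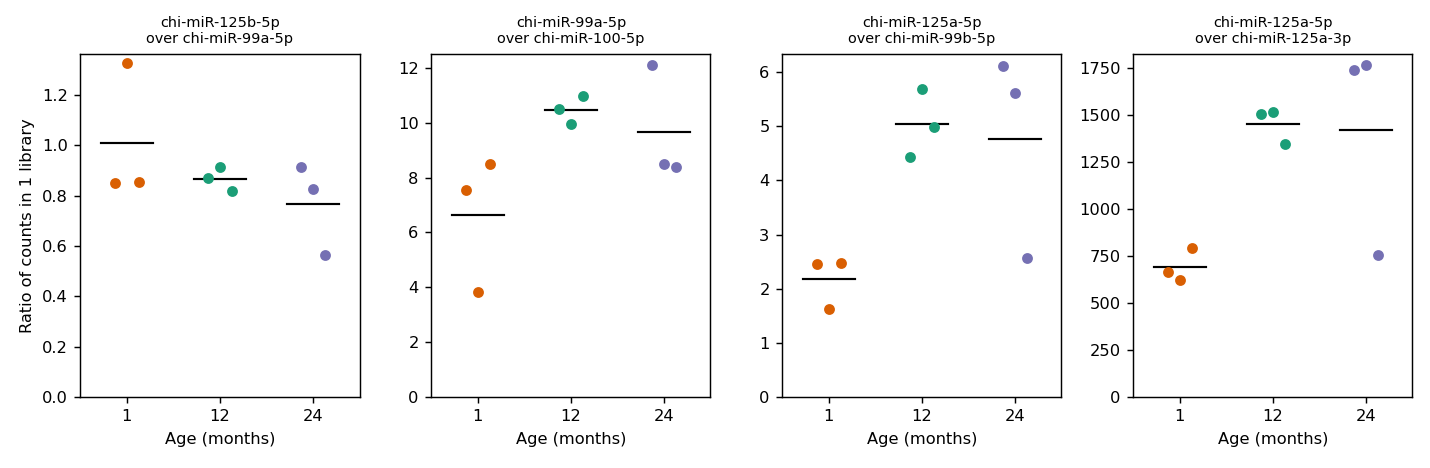
Each panel plots 1 ratio of counts within a library (y axis, from 0) against age in months (x axis), with 1 point per goat and a bar at the mean of 3 goats. The ratio of chi-miR-125a-5p to chi-miR-99b-5p is 1.62 to 2.47 at 1 month and 4.43 to 5.69 at 12 months, with 1 of 3 goats at 24 months back at 2.57.

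The longer 3′ forms of the 5p arms were a minor part of their RNA in every library. miR-99-x made up 26.3 ± 0.713% of the sum of miR-99-x and chi-miR-99a-5p at 1 month, 26.0 ± 3.32% at 12 months and 26.3 ± 2.71% at 24 months. For miR-100-x the share was 24.3 ± 1.42%, 28.1 ± 2.69% and 27.6 ± 2.61%, and for miR-125-x it was 15.6 ± 0.611%, 17.4 ± 1.38% and 18.2 ± 1.80%. In 24-month goat 5 the longer forms of all 3 stood highest, at 29.3%, 30.6% and 19.98%. In 12-month goat 5 all 3 were the lowest of their age, at 22.4%, 25.1% and 15.9%. On the 3p side, the rare miR-99-y exceeded chi-miR-99b-3p in each library but 12-month goat 5 and made up 63.0 ± 1.51%, 66.4 ± 17.3% and 66.3 ± 13.6% of the pair. These shares were not tested. With longer and shorter forms summed, a setting chosen after the values were seen, 0 members passed in each comparison, and chi-miR-99a-5p with miR-99-x took 4.96 ± 2.12%, 5.84 ± 0.371% and 5.52 ± 0.685% of counts at 1, 12 and 24 months.

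**Figure D5:**
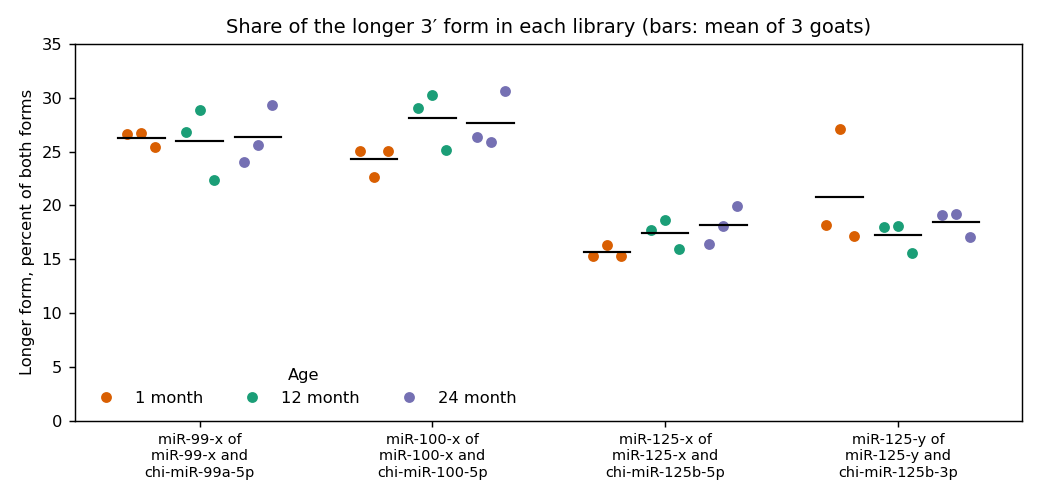
The y axis gives the longer form as a percent of the longer and shorter form together in each library, for 4 pairs of entries on the x axis, with 1 point per goat and a bar at each age's mean. miR-99-x and miR-100-x lie between 22.4% and 30.6%, and miR-125-x lies between 15.3% and 19.98%. miR-125-y lies between 15.6% and 27.1%, with 1-month goat 2 highest.

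The let-7 genes that share clusters with these families in mammals were read beside them: let-7a, let-7c and let-7e, both arms, 6 entries, all tested. Between 1 and 12 months 0 of 6 passed in edgeR, and between 12 and 24 months 0 of 6, with 0 and 2 at an unadjusted p under 0.05. DESeq2 and limma voom also called 0 in both. Between 1 and 24 months 2 of 6 passed, where 26.3% of all entries did, a share close to that of the list. These were both arms of let-7a, a microRNA that rises as tissues mature and that is made from more than 1 gene. chi-let-7a-5p was 30455, 20035 and 22692 CPM in 1-month goats 1, 2 and 3 and 42603, 47663 and 79680 CPM in 24-month goats 2, 3 and 5. Its log2 fold change was 1.22 (SE 0.34, edgeR adjusted p = 0.0260), with all 3 values at 24 months above all 3 at 1 month. It did not pass without 1-month goat 3 (0.0622), 12-month goat 3 (0.0881) or 12-month goat 5 (0.0892). Nor did it pass without 24-month goat 2 (0.0813), 24-month goat 3 (0.0938) or 24-month goat 5 (0.200, log2 0.72). chi-let-7a-3p averaged 66.4 ± 25.004, 121 ± 32.6 and 259 ± 128.3 CPM at 1, 12 and 24 months. It had a log2 fold change of 1.97 (SE 0.49, adjusted p = 0.0164) and did not pass without 24-month goat 3 (0.104) or 24-month goat 5 (0.0647). The last goat had the lowest miR-125 5p levels of its age and the highest chi-let-7a-5p. Scaling by library size alone, no filter, a fit of the 2 ages alone and a replicate block also ended the chi-let-7a-5p call (edgeR adjusted p = 0.0798, 0.185, 0.111 and 0.153). The block ended that of chi-let-7a-3p too (0.0735). The fit of the 2 ages and the block also leave fewer residual degrees of freedom than the main fit.

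chi-let-7c-5p, the neighbour of miR-99a, stood at 2552 ± 1059, 2601 ± 203.1 and 2963 ± 709 CPM at 1, 12 and 24 months, and did not pass (log2 0.03 and 0.22 for 12 and 24 months against 1 month). chi-let-7e-5p, the neighbour of miR-99b, stood at 665 ± 291, 709 ± 159 and 811 ± 71.9 CPM. The ratio of chi-let-7c-5p to chi-miR-99a-5p lay within 0.0682 and 0.0856 in the young goats, within 0.0558 and 0.0629 in the 12-month goats and within 0.0520 and 0.0808 in the oldest. chi-let-7e-5p over chi-miR-99b-5p was 0.181 to 0.264, 0.231 to 0.306 and 0.346 to 0.389 at 1, 12 and 24 months, with the 24-month goats above all others. These ratios were not tested. Among pairs of goat-named entries with a mean of at least 1000 CPM, 62.2%, 9.3% and 59.5% did not overlap. These are for 12 against 1, 24 against 12 and 24 against 1 month. chi-let-7e-5p lies below that level. The miR-10 family, whose 5p sequence resembles that of miR-99 but has another seed, had 4 of 6 entries tested and 0 passed in each comparison in edgeR, DESeq2 and limma voom. At an unadjusted edgeR p under 0.05 there was 1, between 1 and 24 months. chi-miR-10b-5p stood at 5382 ± 2384, 3425 ± 924 and 3676 ± 1241 CPM, and chi-miR-10a-5p stood at 175 ± 60.5, 157 ± 44.6 and 151 ± 73.9 CPM at 1, 12 and 24 months.

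The entries most like chi-miR-99a-5p over the 9 libraries, by Pearson correlation of log2(CPM + 1) among 221 named entries with a mean of at least 100 CPM, were miR-151-y (r = 0.959), chi-miR-145-3p (0.956), miR-152-y (0.956), chi-miR-23b-3p (0.951) and chi-miR-136-5p (0.949). Without 1-month goat 2 these were 0.821, 0.730, 0.691, 0.703 and 0.651, so the likeness was lower without that library, where mesenchymal markers, to which chi-miR-145-3p belongs, took 1.66% of counts. For chi-miR-125b-5p the entries were chi-miR-136-5p (r = 0.787), chi-miR-136-3p (0.780), chi-miR-365-3p (0.750), chi-miR-224-5p (0.738) and chi-miR-30f-5p (0.737), with 0.858, 0.742, 0.591, 0.625 and 0.795 without that goat. Among members, chi-miR-99a-5p correlated with chi-miR-125b-5p at 0.647 and with chi-miR-100-5p at 0.014 over 9 libraries, and at 0.353 and 0.568 without 1-month goat 2. chi-miR-125b-5p correlated with chi-miR-125a-5p at 0.883 and at 0.869 without that goat. These values describe 9 libraries that share age and scaling factors, and the part of cell mix in them was not tested.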

How the data were processed

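Small RNA libraries were made from TRIzol total RNA with Illumina miRNA protocols, per the labels. The deposited table gives raw read counts per miRNA entry and the sequence of each entry, per the file headers. The submitters' processing notes name FastQC and Bowtie. Tool versions, mismatches allowed, genome build and miRNA release: not given in the sources used here. One edgeR 4.0.16 model (R 4.3.3) took in all 9 libraries, with filterByExpr (minimum count 10, minimum total 15), TMM scaling and the robust quasi-likelihood test on 6 residual degrees of freedom. Standard errors are the log2 fold change over the root of F. The model was checked on simulated data. Alternatives were 3 other scalings, DESeq2 1.42.0, limma voom 3.58.1, no filter, fewer libraries or entries, a replicate block and each library left out. Values by library are given for members that average 10 CPM or more at some age. Cluster partners are named from 100 CPM, with the 5 entries most like each main member. The fit with longer forms summed was chosen after the values were seen. The members and lists were chosen with earlier results of these data known.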

Additional observations from a re-analysis of the deposited data

How the results depend on the processing

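0 members were called in each comparison under each alternative run, apart from 1 (chi-miR-99a-3p, 12 against 1 month) with goat-named entries alone. Counts of all 16 members, the 6 other-named included, came to 14.01%, 15.2% and 13.6% of the goat-named counts at 1, 12 and 24 months, a ratio whose numerator is not contained in its denominator.

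Among the 6 members with fold changes of their own in the text, these log2 fold changes, none of them called, changed sign. For 24 against 12 months chi-miR-99a-5p was 0.017 with DESeq2 size factors, 0.017 with the DESeq2 Wald test, 0.043 with goat-named entries alone and 0.045 with the replicate block, and chi-miR-99a-3p was 0.18 with the block. For 24 against 1 month chi-miR-125b-5p was −0.14 by library size alone and −0.13 with no filter. There chi-miR-100-5p was 0.12 with upper quartile, 0.058 with goat-named entries alone and 0.013 with longer forms summed. Among the 8 other tested members 11 of 24 fold changes changed sign under some setting, 0 of them called. The cause was not tested.

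With each library left out, values for 12 against 1 month ran from 0.018 to 0.66 for chi-miR-99a-5p, from −0.060 to 0.44 for chi-miR-125b-5p and from −0.80 to 0.15 for chi-miR-99b-5p. For 24 against 12 months they ran from −0.14 to 0.25 for chi-miR-99a-5p, −0.30 to 0.10 for chi-miR-125b-5p, −0.46 to 0.12 for chi-miR-125a-5p, −0.46 to 0.23 for chi-miR-99b-5p and −0.15 to 0.11 for chi-miR-99a-3p. For 24 against 1 month they ran from −0.12 to 0.21 for chi-miR-125b-5p and −0.34 to 0.025 for chi-miR-100-5p.

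Scaling moved the median log2 fold change of all entries from −0.02 to −0.20 (12 against 1 month) and from −0.06 to −0.36 (24 against 1 month) with library size alone. Deviations of log CPM from the age mean correlated at −0.198 to 0.150 over 5 pairs of same-numbered goats. Differently numbered goats of different ages ran from −0.320 to 0.314. With so few pairs this cannot exclude a link between same-numbered goats, and no label says that the numbers pair them. With the replicate block 4, 0 and 71 entries were called, against 180, 0 and 246 without it, for 12 against 1, 24 against 12 and 24 against 1 month. The block takes up degrees of freedom, so fewer than the 6 residual ones of the main fit are left. 1-month goat 1 and 12-month goat 4 are each alone in their number, so under the block they carry no information on age. Whether the lost calls reflect pairing was not tested. With 3 goats an age the 95% intervals are wide, and the part of depth in this was not tested.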

Other observations

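3 entries outside the families by name carry the miR-125 seed. lin-4-x, named after the worm relative of miR-125, held 52 to 102 counts per library and 670 in all. Its log2 fold changes were 0.42, −0.29 and 0.13 for 12 against 1, 24 against 12 and 24 against 1 month, and it passed in 0 of the 3 comparisons in edgeR, DESeq2 and limma voom, also at an unadjusted p under 0.05. miR-4324-y held 420 counts in all. The likeness of these entries goes beyond the seed. lin-4-x reads as miR-125-x with an A left out and the last base trimmed. miR-4324-y reads as chi-miR-125b-5p with another first and last base. Whether their counts come from miR-125b was not tested. miR-351-x held 412, of which 238 were in 12-month goat 5, and 0 were found in 1-month goat 2 and 24-month goat 5. The sequences are shown with the seed, on which they were picked, in capitals.
lin-4-x: tCCCTGAGaccctacttgtga
miR-4324-y: aCCCTGAGaccctaacttga
miR-351-x: tCCCTGAGgagccctttgag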
